A study of Bos taurus with 13 samples.

Results

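The milk protein genes described here are 4 casein genes (CSN1S1, CSN1S2, CSN2 and CSN3) and 2 whey protein genes (LALBA and PAEP), measured on a bovine mammary cDNA microarray. They were taken by gene symbol from the platform annotation, which assigned them 48 of 3888 spots. The spots ran in clones of 3 consecutive printed copies, so the genes had 16 of 1296 clones and were 6 of the 706 genes named on the array. CSN1S1 had 6 clones, CSN2 and PAEP had 3 each, LALBA had 2, and CSN3 and CSN1S2 had 1 each. The 6 clones of CSN1S1 carried a single accession, as did the 3 of CSN2, so the annotation gives each gene's clones 1 sequence record. Whether these clones held the same cDNA was not tested, and their tissue values, given below, differed. LALBA and PAEP each had 2 accessions.

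The series held 13 arrays with 2 RNAs each. On 2 of them, RNA of lactating mammary gland was compared with prepubertal mammary RNA, from a Holstein heifer of 136 kg on array 1 and of 227 kg on array 2. On 8 others, RNA of thymus, spleen, lymph tissue, liver, ileum, adrenal tissue, adipose tissue or prepubertal mammary gland (Holstein heifer, 136 kg) was compared with that of the reference, a cell line the labels name BovMac. 1 array compared a prepubertal with a postpubertal gland (Holstein heifers of 136 kg and 310 kg), and on 2 the reference was compared with itself (spelled BovMav on the first). The labels give no treatment and no age, and give weight and breed for the heifers only. Whether both arrays used 1 lactating RNA, and from how many cows, is not given, and for array 2 a keyword says post-pubertal, against its title and channel. With 1 array per tissue and 2 for the lactating gland, the p-values below measure only the spread between 2 arrays and across clones.

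Caseins are the phosphoproteins that assemble with calcium phosphate into the micelles of milk. CSN1S1 and CSN1S2 encode alpha-S1 and alpha-S2 casein, CSN2 encodes beta-casein, and CSN3 encodes kappa-casein, which coats the micelle and keeps it in solution. The whey genes LALBA and PAEP encode alpha-lactalbumin, the subunit that turns a galactosyltransferase into lactose synthase, and beta-lactoglobulin, a lipocalin that is the main whey protein of ruminants. The secretory epithelium of the mammary gland transcribes these genes under prolactin, glucocorticoid and insulin, with STAT5 as the main factor downstream of the prolactin receptor. All 6 gene IDs were found in RefSeq (ARS-UCD2.0), where CSN1S1 and CSN2 are neighbours. 4 other protein-coding genes (HSTN, STATH, PRR27 and ODAM) lie between CSN1S1 and CSN3, and 0 of them were named on the array.

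Values are deposited log ratios whose base is not given in the sources used here, centred on each array's median, with an exact 0 treated as no value. Neither the dyes nor the order of the ratio is given, only which RNA was in which channel. On the lactating arrays the positive side is likely the lactating gland, because milk protein genes are known to be transcribed there. That reading rests on these genes, so their sign is not a result. What was measured is how large the ratios were and how far clones and arrays differed.

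On the lactating arrays, alpha-S1 casein had large positive ratios in every clone, beta-casein and beta-lactoglobulin had moderate positive ratios in some clones, and alpha-S2 casein, kappa-casein and alpha-lactalbumin did not pass the test. In the limma test of the mean of the 2 arrays against 0, 10 of the 16 clones passed an adjusted p of 0.05, all on the positive side. The same test called 12.8% of the 1230 clones tested on either side, 8.46% on the positive side and 4.31% on the negative side. Of its calls 66.2% were positive, against 44.0% without centring of the arrays. 6 of the 10 milk protein clones that passed were those of CSN1S1, which carry 1 accession, so the 10 are not separate genes. In the fit per gene, CSN1S1, CSN2 and PAEP passed and CSN1S2, CSN3 and LALBA did not. Of all named genes tested, 13.1% passed that fit. The median of the 16 clone means was 0.95, against -0.01 over all clones tested. The 6 CSN1S1 clones weigh on that median: the gene mean was 2.09 for CSN1S1 and between 0.10 and 0.77 for the other genes. 13 of the 16 clones were positive on both arrays, against 35.7% of all clones. Since the positive side was read from these genes, that count gives no support for the side. 6 of the 16, all of them CSN1S1 clones, lay at least 1 log unit above 0 on both arrays, against 3.41% of all clones. On the 2 arrays of the reference against itself, the same test called 0 of 1186 clones by limma, while 52 had an unadjusted p under 0.05.

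**Figure D1:**
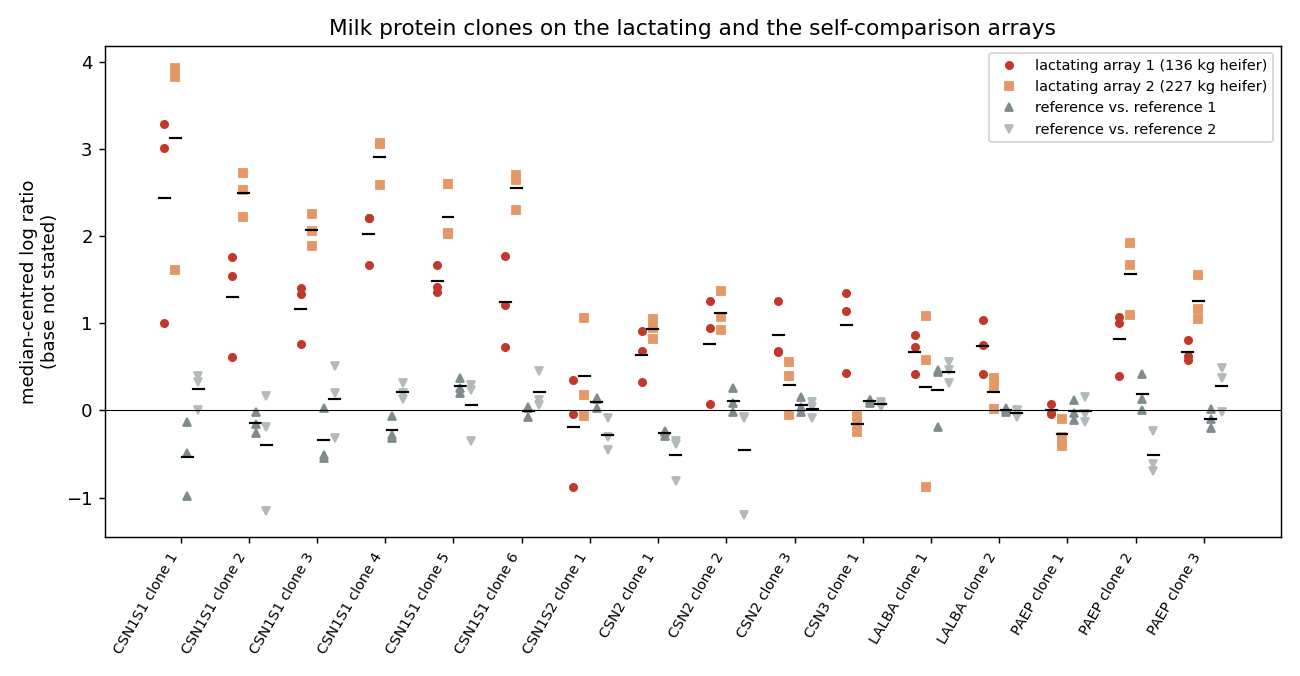
Median-centred log ratios (base not stated, y axis) of the 3 spots of each of the 16 milk protein clones (x axis) on the 2 lactating arrays and on the 2 arrays of the reference against itself. Points are spots and black bars are clone means. All 18 CSN1S1 spots lie above 0 on both lactating arrays, between 0.61 and 3.93.

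The 18 spots of CSN1S1 lay between 0.61 and 3.29 on array 1, with a median of 1.48, and between 1.61 and 3.93 on array 2, with a median of 2.56. On the arrays of the reference against itself the CSN1S1 spots lay between -0.99 and 0.37 and between -1.16 and 0.51. The lactating spots of CSN1S1 all lay above these ranges, and how many other genes did so was not counted. In size regardless of sign, the lowest array 1 spots did not exceed the self-comparison spots farthest from 0. Clone 1 had the highest mean of the 16 clones, 2.78 ± 0.49 (SD, n = 2), and ranked 8 among the 1230 clones tested. Clone 4 followed at 2.47 ± 0.62 (SD, n = 2), with 2.03 on array 1 and 2.91 on array 2. Clones 2, 5 and 6 lay close together, at 1.90 ± 0.84, 1.85 ± 0.52 and 1.90 ± 0.93 (SD, n = 2 each), and clone 3 was lowest at 1.62 ± 0.63. The adjusted p of the 6 clones by limma ran between 1.24e-05 and 0.00122. The fit per gene gave 2.09 ± 0.67 (n = 2, adjusted p = 2.74e-06 by limma). Set against the arrays of the reference against itself, the gene value was 2.13 and did not pass (adjusted p = 0.085 by limma).

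Beta-casein (CSN2) had smaller ratios, and its clones differed. Clone 1 was at 0.64 on array 1 and 0.94 on array 2 (mean 0.79 ± 0.21, n = 2, adjusted p = 0.0109 by limma). Clone 2 was at 0.76 and 1.12 (mean 0.94 ± 0.26, n = 2, adjusted p = 0.00508 by limma). Both passed. Clone 3 was at 0.87 on array 1 and 0.30 on array 2, with a mean of 0.59 ± 0.41 and an adjusted p of 0.0673 by limma, so it did not pass. 9 of 9 CSN2 spots were positive on array 1 and 8 of 9 on array 2.

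CSN1S2, the gene of alpha-S2 casein, did not pass, and its spots straddled 0 on both arrays. Its 3 spots were at -0.05, 0.35 and -0.88 on array 1 and at -0.07, 0.18 and 1.07 on array 2. The mean of 0.10 ± 0.41 (n = 2) had an adjusted p of 0.789 by limma. The SD over its spots, 0.63 on array 1 and 0.60 on array 2, was larger than the mean.

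Kappa-casein and alpha-lactalbumin were positive on array 1 and lower on array 2. The CSN3 spots were at 0.43, 1.35 and 1.14 on array 1 and at -0.06, -0.25 and -0.16 on array 2, so the arrays did not overlap and disagreed in sign. The mean was 0.41 ± 0.80 (n = 2) with an adjusted p of 0.329 by limma. Alpha-lactalbumin had 2 clones with nearly equal means, 0.47 ± 0.29 and 0.48 ± 0.37 (n = 2 each), and adjusted p of 0.107 and 0.117 by limma. LALBA clone 1 lay at 0.67 and 0.27 on the lactating arrays. On the arrays of the reference against itself it was at 0.24 and 0.45, and the difference between the means was 0.13. Its spots were at 0.42, 0.73 and 0.865 on array 1 and at -0.87, 0.58 and 1.09 on array 2. The lower array 2 mean of this clone thus rested mainly on its first spot. With the first spot of every clone left out, LALBA clone 1 was at 0.82 and passed (adjusted p = 0.0226 by limma). LALBA clone 2 stood at 0.74 and 0.22 on the lactating arrays, against 0.01 and -0.02 on the self-comparisons.

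PAEP, the gene of beta-lactoglobulin, split by accession. Clone 1, the only clone of the first accession, was at 0.00 on array 1 and -0.27 on array 2, and ranked 848 of 1230. Clones 2 and 3, both of the second accession, passed. Clone 2 was at 0.82 and 1.56 on arrays 1 and 2 (mean 1.19 ± 0.52, n = 2, adjusted p = 0.0036 by limma), and clone 3 at 0.67 and 1.26 (mean 0.96 ± 0.42, n = 2, adjusted p = 0.00758 by limma). The 6 spots of clones 2 and 3 lay between 0.40 and 1.92, while those of clone 1 lay between -0.41 and 0.08, without overlap. The mean over the 3 clones, 0.67 ± 0.25, lies between the accessions, and passed at an adjusted p of 0.0116 by limma in the fit per gene.

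Set against the arrays of the reference against itself in place of 0, 2 of the 16 clones passed, against 1.87% of the 1179 clones tested. These were CSN1S1 clones 1 and 4, at 2.93 and 2.47 (adjusted p = 0.0268 and 0.0339 by limma). The other 4 CSN1S1 clones, 2, 3, 5 and 6, were at 2.17, 1.73, 1.68 and 1.80 there, against means of 1.90, 1.62, 1.85 and 1.90 on the lactating arrays, with adjusted p between 0.0776 and 0.151 by limma, and the CSN2 and PAEP clones that had passed lay between 0.0818 and 0.22. In that contrast CSN2 clones 1 and 2 were at 1.18 and 1.11 and PAEP clones 2 and 3 at 1.36 and 0.87. With 1 lactating array left out, the other was assumed to vary like the 2 arrays of the reference against itself, which alone gave the spread, over 1182 clones. The value of a clone was then that of the array that remained. The 6 CSN1S1 clones lay between 2.07 and 3.13 without array 1 and between 1.17 and 2.44 without array 2. The CSN2 and PAEP clones that had passed lay between 0.94 and 1.56 without array 1 and between 0.64 and 0.82 without array 2. With both lactating arrays and the self-comparisons sharing the spread, 6 of the 16 clones passed, against 65 of 1179 over all clones. With exact 0 kept as a value, 2 of the 16 clones passed, against 28 of 1296 over all clones. These were again CSN1S1 clones 1 and 4, at 2.76 and 2.45 (adjusted p = 0.0298 and 0.0469 by limma). There CSN1S1 clones 2, 3, 5 and 6 were at 1.88, 1.60, 1.83 and 1.88 and did not pass.

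The 2 lactating arrays, whose prepubertal heifers differed in weight, differed by gene. In 18 of 18 CSN1S1 spots the ratio was higher on array 2, and the clone means differed by 0.69 to 1.31 log units. Both PAEP clones that passed were also higher on array 2, by 0.74 and 0.59. The 3 CSN3 spots, by contrast, were all lower on array 2, by 1.13 in the mean, and 5 of 6 LALBA spots were lower. CSN2 held both patterns, since clones 1 and 2 were higher on array 2 by 0.30 and 0.36, while clone 3 fell by 0.57 there. Over all clones, those near or below 0 included, 52.3% were higher on array 2, a share of clones and not of spots. With 1 array for each weight the difference could not be tested, and the prepubertal RNA and the array cannot be told apart. The median absolute deviation (MAD) over all clones was 0.27 on array 2 and 0.18 on array 1, and its part in these differences was not tested.

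**Figure D2:**
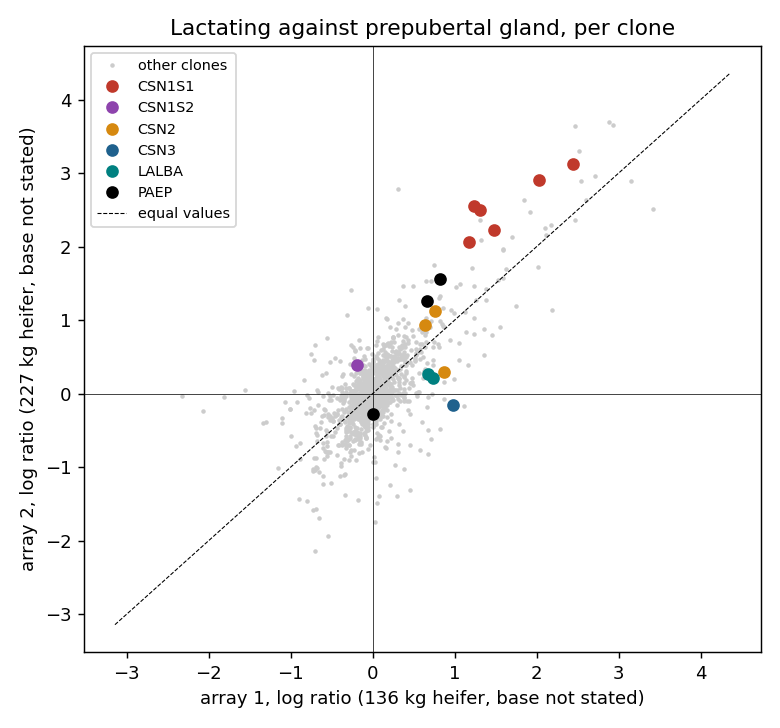
Median-centred log ratio (base not stated) per clone on lactating array 1 (x axis, 136 kg heifer) and array 2 (y axis, 227 kg heifer). Grey points are all other clones, coloured points are the milk protein clones and the dashed line marks equal values. The 6 CSN1S1 clones lie above the line, while CSN3, both LALBA clones and CSN2 clone 3 lie below it.

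Within a clone the printed copies were not interchangeable. In CSN1S1 clone 1 the first spot was at 1.01 on array 1 and 1.61 on array 2, while the other spots were at 3.29 and 3.02 on array 1 and at 3.93 and 3.83 on array 2. The first spot in row order was the lowest of the 3 in 8 of 16 milk protein clones on array 1 and in 11 of 16 on array 2. Over all clones this held for 33.7% on array 1 and 32.0% on array 2. Among other clones at least 1 log unit above 0 it held for 48.9% and 45.3%. With the first spot of every clone left out, a choice made after the data were seen, the median of the 16 clone means was 1.10 in place of 0.95. In that setting 11 of the 16 clones passed, against 117 of 1204 over all clones.

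Other milk genes on the array were few, and the lists they come from were drawn up with earlier results of these data known. CD36, a fatty acid transporter of the milk fat globule membrane, passed at 1.01 ± 0.22 (n = 2, adjusted p = 0.000542 by limma), as 1 of 3 measured globule genes, beside BTN1A1 at 0.29 ± 0.04 and MUC1 at -0.10 ± 0.14. Of the named genes tested, 13.1% passed. The whey protein lactoferrin (LTF) was at 0.19 ± 0.04 and PGM1, of sugar phosphate metabolism, at 0.20 ± 0.08, and neither passed. 0 of 3 genes of hormone and transcription control passed: the growth hormone receptor GHR was at 0.12 ± 0.15, ELF5, a transcription factor of alveolar cells, at -0.09 ± 0.03 and NFIB at 0.11 ± 0.28. Of 5 genes of casein folding and export, the disulfide isomerase PDIA3 passed at 0.94 ± 0.59 (n = 2, adjusted p = 0.00336 by limma), with 1.36 on array 1 and 0.52 on array 2. The chaperone HSP90B1 (-0.44 ± 0.22), the signal peptidase subunit SPCS2 (-0.01 ± 0.20), SAR1A (0.05 ± 0.02) and SEC23B (-0.02 ± 0.05) did not pass.

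Markers of cell types were also read on the lactating arrays. Both RNAs there are of mammary gland, so these ratios cannot check the identity of the tissue. Over all named genes tested, 13.1% passed. The mammary epithelium genes on the array were EPCAM (0.14 ± 0.33), KRT7 (-0.25 ± 0.33) and ELF5, of which 0 of 3 passed on the lactating arrays. Of 4 stroma genes 1 passed, COL5A2 at 0.57 ± 0.06, while COL6A1 was at -0.09 ± 0.25, POSTN at -0.21 ± 0.15 and TNC at -0.38 ± 0.12, for a list median of -0.15. Of 5 leukocyte, 3 smooth muscle and 2 endothelium genes 0 passed. Complement C3 passed at 1.13 ± 0.15, as 1 of 3 hepatocyte genes, beside A2M at -0.13 ± 0.83 and FGG at 0.04 ± 0.02. The part of cell composition in the casein ratios was not tested, and in such bulk RNA more secretory cells and more RNA per cell cannot be told apart. The adipocyte list, and the macrophage list drawn up for the reference, had 0 genes on the array.

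On the tissue arrays, of 127 values of the 16 clones on 8 arrays, 1 lay at least 1 log unit from 0. The share of all clones past that limit was 8.56% on the ileum array and 1.28% on the prepubertal mammary array. It was 0.563% for lymph tissue, 0.484% for liver, 0.323% for adrenal tissue, 0.243% for adipose tissue and 0.242% for both spleen and thymus. These shares depend on the scale of the arrays: with arrays scaled to the same MAD, the number of clones past 1 unit was 35 in place of 106 for ileum, 30 in place of 16 for prepubertal mammary gland and 24 in place of 3 for adipose tissue. The median absolute value was 0.12 for the milk protein clones and 0.13 for all clones, but this differed by array. It was 0.24 against 0.17 for thymus, 0.13 against 0.10 for adrenal tissue and 0.15 against 0.14 for prepubertal mammary gland, while for ileum it was 0.12 against 0.24. The direction of these ratios is not settled. If the tissue arrays had the channel order of the lactating arrays, a positive value would be the side of the reference, but whether they did is not stated. The lowest correlation between 2 tissue arrays over clones was -0.23, for adrenal tissue and liver.

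**Figure D3:**
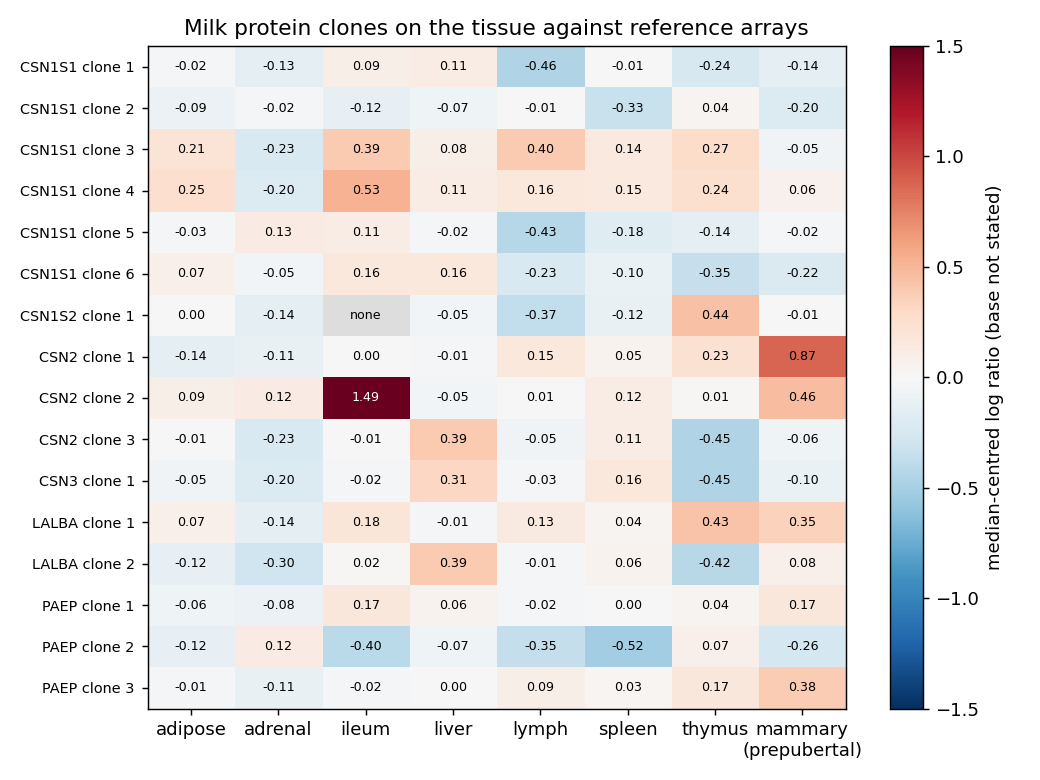
Median-centred log ratio (base not stated, colour and printed value) of the 16 milk protein clones (rows) on the 8 tissue against reference arrays (columns). CSN2 clone 2 on the ileum array, at 1.49, is the single value past 1 log unit, and the grey cell is CSN1S2 in ileum, whose 3 spots are at exact 0.

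CSN1S1, which had the highest ratios of the 6 genes on the lactating arrays, spanned -0.46 to 0.53 over its clones and the tissues. On the prepubertal mammary array its clones lay between -0.22 and 0.06, with a gene value of -0.09. Its clones did not all share a profile over tissues. Pearson's r between them ran from -0.52 for clones 3 and 5 to 0.86 for clones 3 and 4, with 0.80 for clones 1 and 6. Clones 3 and 4, which are next to each other in row order, were positive in lymph tissue (0.40 and 0.16), ileum (0.39 and 0.53) and thymus (0.27 and 0.24). Clone 5 was at -0.43 in lymph tissue and -0.14 in thymus. Clone 1 stood at -0.46 ± 0.90 (SD over 3 spots) in lymph tissue, where its spots were at 0.05, 0.08 and -1.50. Clone 6, at -0.23 ± 1.47, had spots at -1.11, -1.03 and 1.47. In lymph tissue the copies of clones 1 and 6 thus disagreed in sign. With the median of the spots in place of the mean, clone 6 became a value past 1 log unit there.

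CSN2 clone 2 stood apart in ileum. Its spots were at 1.38, 1.47 and 1.61, a mean of 1.49 ± 0.11 (SD over spots), and the next tissue was prepubertal mammary gland at 0.46 ± 0.07. That gap of 1.02 was larger than the sum of both SDs over spots. Clones 1 and 3 of the same accession were at 0.00 and -0.01 in ileum. The high ileum value was thus found in 1 of the 3 CSN2 clones. CSN2 clone 1 was highest in prepubertal mammary gland, at 0.87 ± 0.56, with spots at 0.25, 1.00 and 1.35 and thymus next at 0.23 ± 0.30. There the gap was smaller than the sum of the SDs. Clone 3 was at -0.06 in the same gland.

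PAEP clone 3 was also highest in prepubertal mammary gland, at 0.38 ± 0.25, followed by thymus at 0.17 ± 0.31, which do not differ beyond their spread over spots. PAEP clone 2, of the same accession, was negative there, at -0.26, and lowest in spleen at -0.52 ± 0.14 and ileum at -0.40 ± 0.13. PAEP clone 1 was at 0.17 in both ileum and mammary gland, with its lowest value, -0.08, in adrenal tissue. PAEP clones 2 and 3, which both passed on the lactating arrays, differed in sign on 5 of the 8 tissue arrays.

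Of the 16 clones, 2 had their highest tissue value in prepubertal mammary gland, where 14.1% of all clones with 8 tissue values had theirs, and 4 each had it in ileum and liver, against 24.3% and 12.8% of all clones. With the sign turned, 0 of the 16 were lowest in prepubertal mammary gland (5.35% of all clones), 0 in ileum (26.8%), 1 in liver (9.13%), 5 in adrenal tissue (16.2%) and 4 in thymus (14.5%). CSN1S2 had its highest value in thymus, 0.44 ± 0.27, followed by adipose tissue at 0.00, and its lowest in lymph tissue at -0.37 ± 0.20. It had no value in ileum.

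A profile over the tissues was shared by clones of 3 genes. CSN2 clone 3, the CSN3 clone and LALBA clone 2 were each highest in liver, at 0.39 ± 0.07, 0.31 ± 0.04 and 0.39 ± 0.07 (SD over spots), and lowest in thymus, at -0.45 ± 0.02, -0.45 ± 0.06 and -0.42 ± 0.25. In adrenal tissue they stood at -0.23, -0.20 and -0.30, while in ileum, lymph tissue and prepubertal mammary gland they stayed within 0.10 of 0. Over the 8 tissues Pearson's r was 0.99 between CSN2 clone 3 and CSN3, 0.95 between CSN2 clone 3 and LALBA clone 2 and 0.92 between CSN3 and LALBA clone 2. The 3 clones lie 48 to 171 clones apart in row order. These are the 3 clones that, with LALBA clone 1, were lower on lactating array 2 than on array 1 and had positive means. For LALBA clone 1 the lower mean rested mainly on its first spot.

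The other clones of the same genes did not have this profile. LALBA clone 1, of another accession, was at 0.43 ± 0.06 in thymus, its highest tissue, and at -0.01 in liver. CSN2 clones 1 and 2 were at 0.23 and 0.01 in thymus. Of the 120 pairs among the 16 clones, 4 reached an r of 0.9 (3.33%), against 0.864% of all pairs of clones with 8 tissue values. The other such pair was CSN2 clone 1 with PAEP clone 3 (r = 0.96). The median r was -0.03 for the 22 pairs within a gene and 0.05 for the 98 pairs of different genes. The profile was also found outside the milk protein genes, since 10 of the 1215 other clones reached an r of 0.9 with CSN3, 7 with CSN2 clone 3 and 5 with LALBA clone 2, each other included. These correlations describe 8 arrays that share the reference, and the pairs were picked from all pairs by their size.

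**Figure D4:**
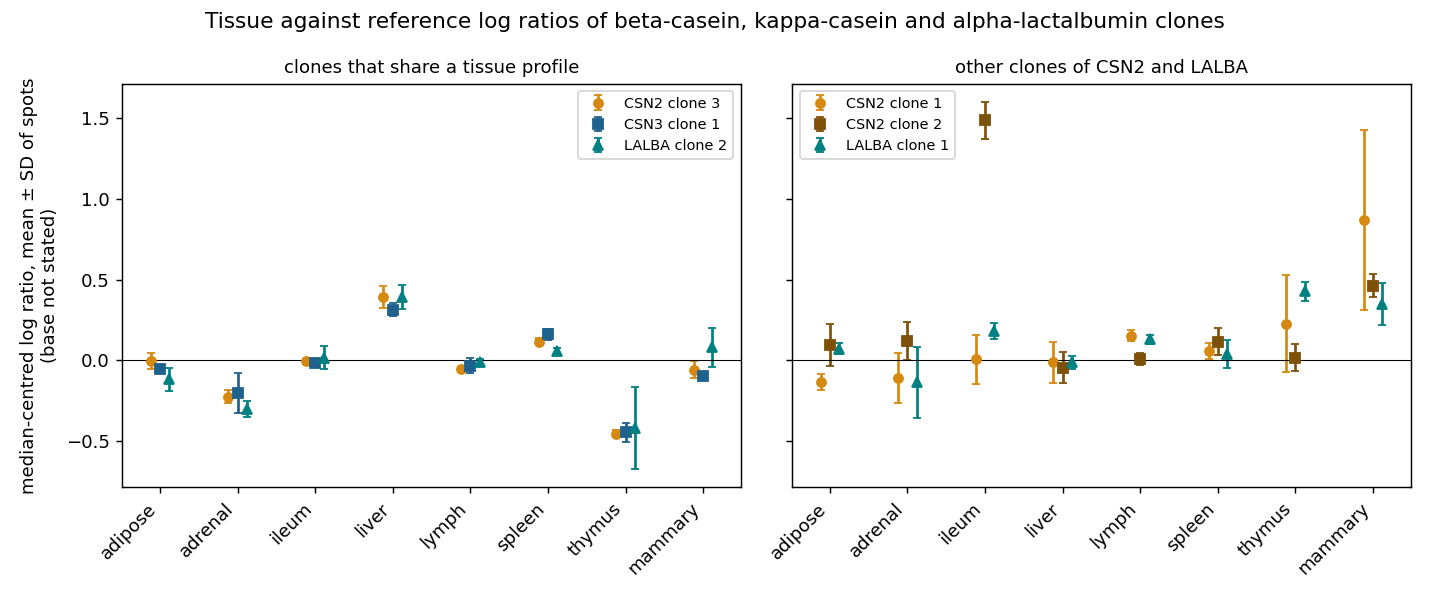
Median-centred log ratios (base not stated, y axis; mean ± SD over the spots of a clone) on the 8 tissue against reference arrays (x axis) for CSN2 clone 3, CSN3 and LALBA clone 2 (left) and for CSN2 clones 1 and 2 and LALBA clone 1 (right). The left clones are highest in liver and lowest in thymus, and the right clones are not.

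Position in the row order of the file went with the tissue values. Consecutive clones correlated with r = 0.47 on the lymph array, 0.45 on the spleen array and 0.15 to 0.31 on the other 6, but with 0.06 and 0.10 on the lactating arrays. A running median over 61 clones in row order was also subtracted, a step added after the data were seen. The profile shared by CSN2 clone 3, CSN3 and LALBA clone 2 then had r of 0.99, 0.92 and 0.88 in the order of pairs given above. In that setting 10 of the 16 clones passed the lactating test, against 156 of 1230 over all clones. The part of row position in the tissue values of CSN1S1 was not tested.

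By Pearson's r over the 8 tissue and 2 lactating arrays, among 686 genes with a value on all 10, the gene values most like CSN1S1 were those of AP2B1 of the clathrin adaptor (0.99), SSBP2 (0.98) and MFAP4 of the extracellular matrix (0.98). Most like CSN2 were CD36 (0.93), SERINC3 (0.92) and the acetoacetyl-CoA synthetase AACS (0.91). For CSN3 they were LGR4 (0.95), PRPF4 (0.93) and CYP20A1 (0.91), and for LALBA ESYT1 (0.90), PRPF4 (0.89) and ISCA1 (0.87). PAEP was followed by CLIP2 (0.98), LOC107132045 (0.97) and MFAP4 (0.97). CSN1S2, over the 9 arrays on which it had a value, was closest to RNF8 (0.88), ACOX2 (0.83) and LOC104975673 (0.75). Over the tissues alone, r was 0.49, 0.21 and 0.33 for the genes named with CSN1S1 and 0.53, 0.63 and 0.47 for those named with PAEP, in the order above. It was 0.73, 0.51 and 0.74 for those of LALBA. For CSN2 it was 0.83, 0.82 and 0.84, for CSN3 0.87, 0.90 and 0.73, and for CSN1S2 0.81, 0.78 and 0.79. The genes named were picked by the size of r from all genes ranked. Gene values also average clones that differed. In thymus the LALBA clones were at 0.43 and -0.42, for a gene value of 0.003. In ileum the CSN2 gene value of 0.49 came mainly from clone 2, at 1.49.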

How the data were processed

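The authors deposited 1 log ratio per spot and array. The sources used here do not give its base, the order of its channels, its background correction or its normalization. Medians of the deposited log ratios lay between -0.10 and 0.03 and were subtracted. An exact 0 was treated as missing (124 to 373 spots per array, among them 0 of 48 milk protein spots on the lactating arrays, 3 in ileum and 1 in liver). Clones are means of at least 2 of 3 spots, and gene values are means of clones. The 2 lactating arrays were tested per clone against 0 (R 4.3.3, limma 3.58.1, functions lmFit and eBayes, two-sided, Benjamini-Hochberg adjustment over all clones). The fit had 8.421 prior and 1 residual degree of freedom, so the spread is mostly pooled. The script was tested on simulated data. Alternatives changed the treatment of exact 0, centring, scaling, averaging, spot minimum and the arrays used; 2 were added after the data were seen. Tissue arrays have no replicate and no test. Gene IDs come from the platform annotation. The members and lists were chosen with earlier results of these data known, and genes outside the 6 were named from lists and by the rule of likeness. Tables and figures were made with Python 3.11.15, pandas 2.3.3 and matplotlib 3.10.9. The number of arrays limits the precision, and intensities were not used here.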

Additional observations from a re-analysis of the deposited data

Results flagged for a closer look

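On the array of prepubertal against postpubertal gland, which no comparison above uses, CSN2 clone 2 stood at -1.34, farther from 0 than on either array of the reference against itself (0.11 and -0.45). The value came from 1 spot at -4.08, while the other spots were at -0.04 and 0.10. The spots of a clone agreed little on that array, with a mean Spearman rho of 0.06. It was 0.53 to 0.85 on the tissue arrays, 0.66 and 0.71 on the lactating arrays, and 0.57 and 0.12 on the self-comparisons. Whether the low value came from the spots or from a small difference between the RNAs was not tested.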

How the results depend on the processing

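The count of all clones called, 157, was 28 with exact 0 kept as a value, 77 with arrays scaled to the same MAD, 251 with spots as within-array duplicates, 22 in contrast with the self-comparisons of the reference, and 65 with those arrays sharing the spread. With 1 lactating array left out it was 14 to 48, to be set against the 65, since the spread then came from the self-comparisons alone. The share on the positive side was 66.2%, and 44.0% without centring, 60.6% to 79.2% with duplicates, gene, accession, spot minimum, median, row order, first spot or MAD alternatives, 81.5% with the shared spread and every call with exact 0 kept or in the contrast. Of the 16 milk protein clones, 10 passed, against 2 with exact 0 kept, 2 in the contrast, 6 with the shared spread, and, to be set against those 6, 1 to 6 with 1 array left out. With exact 0 kept, 1296 clones entered the fit in place of 1230. In the other alternatives 10 to 12 passed. With averages per accession (11 passed) or per gene (12 passed), each clone was counted under the mean of its accession or gene. PAEP clone 1 was so counted under the gene mean of 0.67, while its own value was -0.14. With 1 array left out PAEP clone 1 ranged between -0.27 and 0.0016, CSN3 between -0.16 and 0.98 and CSN1S2 between -0.19 and 0.39, each with both signs. The tissue values past 1 log unit numbered 2 with the median of the spots, and those of all clones on the 8 arrays 148, and 95 with the running median subtracted (ileum 64 in place of 106, prepubertal mammary gland 8 in place of 16). The cause was not tested. No further pairing was used, since each log ratio already compares the 2 RNAs of its array and the labels pair no arrays with each other.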
